A study of Mus musculus with 8 samples.

Results

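The specimen names of the 8 fetal mouse lungs in this series end in 3482, 3573 or 3604, and the lungs described here are the 4 of 8 whose name ends in 3482, namely control 1, control 4, TO 1 and TO 4. What the number stands for is not stated, so it was treated as a preparation group and is called the code below. All samples were total RNA of bulk lung from C57BL/6 fetuses at E18.5. TO is tracheal occlusion, a ligation of the fetal trachea in utero that also closed a carotid artery and a jugular vein, and what was done to the control fetuses is not given in the labels. The tests set control 1, control 4 and TO 4 against the 4 lungs of the other codes, which are control 2 and TO 2 of code 3573 and control 3 and TO 3 of code 3604. Condition was a term of the model, and genes on X and Y were left out.

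TO 1 held 270078 read pairs on genes and entered no test, while the 7 other libraries held 22.8 to 35.0 M. Lung markers were found in every library: across the 7 tested lungs the lowest level was 501 counts per M reads on genes (CPM) for Nkx2-1, the transcription factor of lung epithelium, 5777 CPM for Sftpc, the surfactant protein of alveolar type 2 (AT2) cells, and 399 CPM for Pecam1, an endothelial adhesion gene. Reads of Y-linked genes were absent from the 3 tested lungs of code 3482 and present in TO 1, in both lungs of code 3573 and in 1 of 2 lungs of code 3604. A code is represented by 2 or 3 lungs, nothing states what lungs of one code share, and each p-value below measures the spread between these lungs only.

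At this age the mouse lung is in its saccular stage. AT2 cells make surfactant, the lipid and protein film that keeps air spaces open, and the flat alveolar type 1 (AT1) cells form the gas exchange surface. Proliferation falls and these epithelial genes rise as birth approaches.

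The 3 tested lungs with code 3482 had lower levels of AT2, AT1 and airway secretory genes and higher levels of mitotic genes than any of the 4 other lungs when each list was summed. Of 42 gene lists, 3 were higher and 8 were lower in every tested lung of the code than in every other lung. A sum is led by its most abundant members: in mean log2 CPM, which weighs members equally, AT2, AT1, mitotic and early fetal genes were without overlap and the 7 others of these 11 lists overlapped. Outside these 11, the ciliated list and the heat shock and unfolded protein list were lower without overlap in mean log2 CPM but overlapped when summed. When summed, the higher lists were mitotic genes, mitochondrially encoded genes and genes of early fetal growth. The lower ones were AT2, AT1, club and goblet, lipofibroblast, mesothelium, erythroid, p53 target and immediate early genes. TO 1, which played no part in that choice, lay nearer the mean of the other code 3482 lungs in 10 of these 11 lists. It also did so in 20 of the 31 other lists, and the exception among the 11 was p53 targets. TO 1 was below all 7 tested lungs for the vascular endothelium list too (2085 CPM against at least 2487 CPM), which overlapped by code. It was above all of them in 5 of 10 lists of other tissues. A lung low in lung genes falls nearer a lower group whatever its code, so for the lower lists this was no check of the code.

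**Figure D1:**
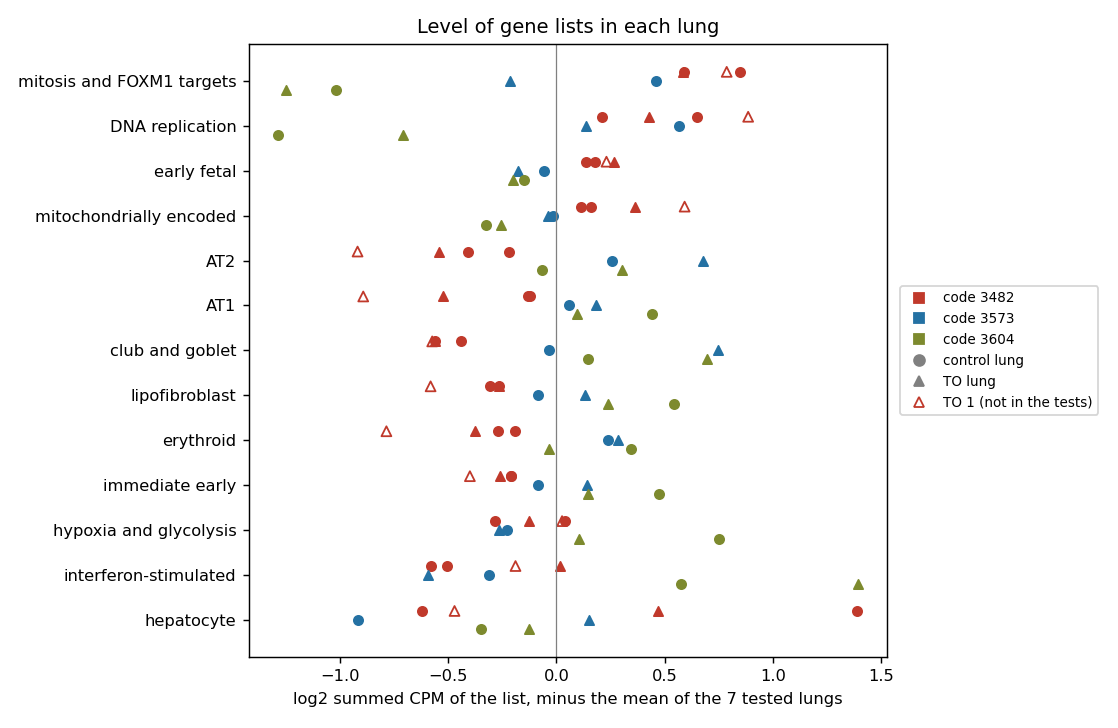
Level of 13 gene lists in each lung. The x axis is the log2 of the summed CPM of a list minus its mean over the 7 tested lungs, each row is 1 list, red, blue and olive mark codes 3482, 3573 and 3604, circles are control lungs, triangles are TO lungs and the open triangle is TO 1. The red points stand together to the right for the mitosis and early fetal lists and to the left for AT2, AT1 and club and goblet genes, the olive points stand apart for the DNA replication and interferon lists, and the red points scatter for hepatocyte genes.

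Gene by gene, the difference passed the test for 1 of 21790 genes (0.00459%; edgeR quasi-likelihood test, Benjamini-Hochberg adjusted p under 0.1). At an unadjusted p under 0.05 there were 1789 genes, 776 higher (3.56%) and 1013 lower (4.65%). Levels in the 3 lungs of code 3482 lay above all 4 others for 1084 genes (4.97%) and below them for 1159 (5.32%). The count of calls rested on single libraries and on the tool. It was 875 without control 2, 14 without control 4 and 0 without control 1, TO 2, TO 3 or TO 4, it was 341 with DESeq2, and it was 0 with the presence of Y-linked reads as a further term.

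The 2 other codes did not stand at the same distance. Against code 3604, 1744 genes (8%) passed the test, 894 higher (4.1%) and 850 lower (3.9%) in code 3482, whereas against code 3573 none did (0%), with 1697 genes at an unadjusted p under 0.05 and 226 called by DESeq2. Codes 3604 and 3573 differed from each other at 831 genes (3.81%), of which 361 were higher (1.66%) and 470 lower (2.16%) in code 3604. Without TO 4 the 1744 calls fell to 228, without control 3 to 374, without control 1 to 680 and without control 4 to 963, and without TO 3 they were 3032.

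Over all genes tested, distances within a code were smaller on average than distances between codes, with 3 pairs of lungs within code 3482 and 1 within each other code. The mean Euclidean distance on log2 CPM was 132 among the 3 lungs of code 3482, 146 between codes 3482 and 3573, and 157 between codes 3482 and 3604. The single pairs within codes 3573 and 3604 were 153 and 151 apart, so the lungs of code 3573 were farther from each other than from those of code 3482 on average. Distances between codes exceeded those within by 15.2 (one-sided exact permutation test over 210 allocations of the 7 lungs, p = 0.00952, the smallest it can give). Without TO 4, control 1 or control 4 the difference was 8.91, 11.5 and 12.3, with exact permutation p-values of 0.133, 0.0667 and 0.0667. Each of these runs had 90 allocations, and the smallest p-value they can give is 0.0667. The values without control 1 and without control 4 are thus at that limit. With the shallow TO 1 included, the difference was -20.2 (p = 0.505, exact permutation test).

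**Figure D2:**
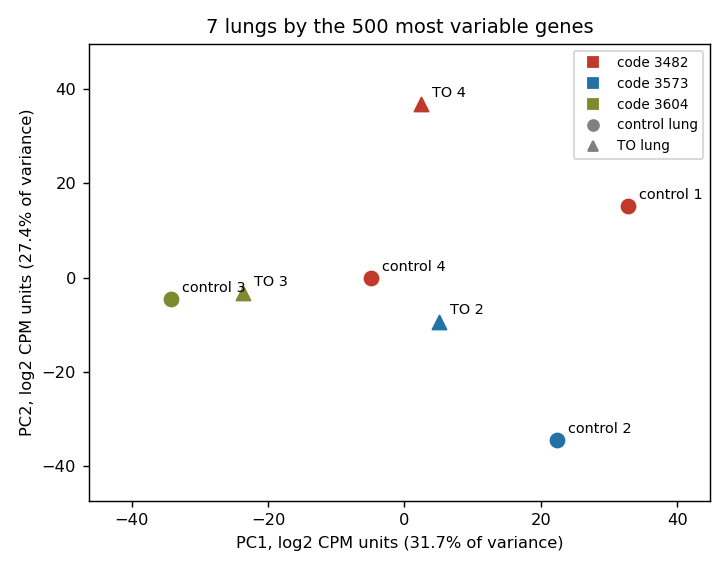
First 2 principal components of the 7 tested lungs over the 500 most variable genes, in log2 CPM units, with 31.7% and 27.4% of the variance. Each point is 1 lung, coloured by code, with circles for control and triangles for TO lungs. Control 3 and TO 3 (code 3604) lie together at the left, while of the code 3482 lungs control 1 and TO 4 lie above 0 on the second component and control 4 lies near 0 on both.

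Whether the code acted alike in control and TO lungs was asked with an interaction term. No gene passed (0%), in edgeR as in DESeq2, with 281 and 376 genes at an unadjusted p under 0.05, and only TO 4 represents TO in code 3482. TO against control with the code as a term gave no call either (0%; 514 genes at an unadjusted p under 0.05).

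The gene called was Gm28438, annotated as an unprocessed pseudogene at chr1:24612775-24613119 on the minus strand (GRCm38). It was at 17.5 CPM in control 1, 12.9 in control 4 and 16.0 in TO 4, against 1.66 in control 2, 1.04 in TO 2, 0.482 in control 3 and 1.44 in TO 3, a log2 fold change of 3.77 (SE 0.39, adjusted p = 0.0972). No lung overlapped, and TO 1 had 7 reads of it (24.7 CPM). Gm28438 is a copy, within the nuclear genome, of the mitochondrial gene mt-Nd3, which encodes a subunit of respiratory complex I. The first 60 bases of both are shown because they hold the only base at which the 345 aligned bases differ, printed in capitals (GENCODE M21 transcripts, 5′ to 3′).
mt-Nd3, chrM:9459-9518, plus strand: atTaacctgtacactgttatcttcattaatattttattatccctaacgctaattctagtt
Gm28438, chr1:24613060-24613119, minus strand: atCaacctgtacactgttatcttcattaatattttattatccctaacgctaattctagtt

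Counted from 1 at the first base of mt-Nd3, the difference is T3C, with the mitochondrial base first, and it falls at base 9461 of the mitochondrial genome. mt-Nd3 itself went the other way, at 0.404, 0.413 and 0.379 CPM in control 1, control 4 and TO 4 against 1.26, 0.859, 1.20 and 2.03 CPM in control 2, TO 2, control 3 and TO 3 (log2 fold change -1.72, SE 0.60, adjusted p = 0.521). The lungs of code 3482 were the lowest of the tested lungs for it, without overlap.

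Counts of near-identical copies are uncertain, so the reads of the pair were also summed. Of the reads on either gene, 97.7% fell on the nuclear copy in control 1 (95% exact binomial interval 95.8 to 99.0%, 398 reads), 96.9% in control 4 (94.4 to 98.5%, 322 reads) and 97.7% in TO 4 (96.1 to 98.8%, 562 reads). In code 3573 the share was 56.8% in control 2 (45.8 to 67.3%) and 54.7% in TO 2 (41.7 to 67.2%), and in code 3604 it was 28.6% in control 3 (16.6 to 43.3%) and 41.5% in TO 3 (30.7 to 52.9%). The intervals, which cover counting error only, do not meet between the 3 tested lungs of code 3482 and the other codes. TO 1, with 9 reads, stood at 77.8%, and its interval (40.0 to 97.2%) meets those of all other lungs. The 6 other copies tested in the same stretch of chromosome 1 are copies of mt-Co1, mt-Co2, mt-Co3, mt-Atp6, mt-Nd4 and mt-Nd4l. Of these, 5 were identical to their mitochondrial gene over the aligned bases, and 5 of 6 overlapped between code 3482 and the other lungs. As background, this base of the mitochondrial genome is one at which C57BL/6 substrains are known to differ, and the labels name no substrain. The base that each lung carries is not in a table of gene counts and was not tested.

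**Figure D3:**
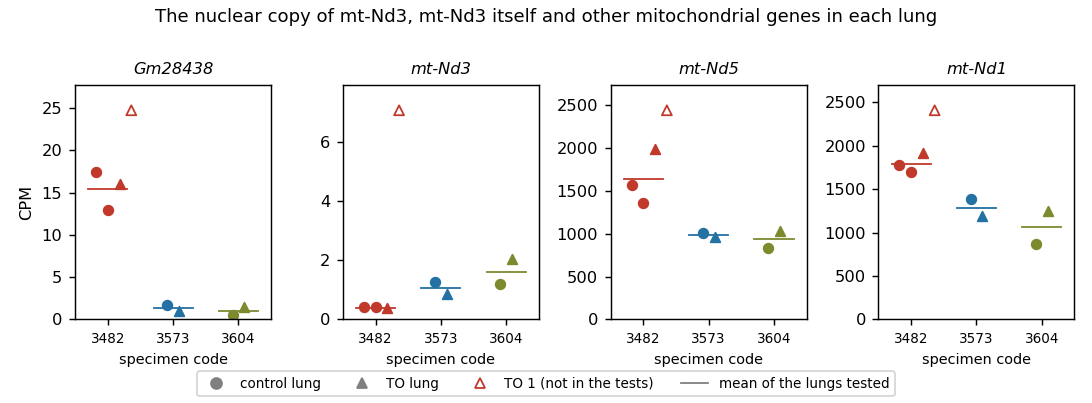
CPM of Gm28438, mt-Nd3, mt-Nd5 and mt-Nd1 in each lung by code. Circles are control lungs, triangles TO lungs, the open triangle is TO 1 and lines are means of the tested lungs. Gm28438 lies between 12.9 and 17.5 CPM in the tested lungs of code 3482 and at or below 1.66 CPM in the other codes, mt-Nd3 runs the opposite way in the tested lungs, and TO 1 is at 24.7 CPM of Gm28438 and 7.07 CPM of mt-Nd3, from 7 and 2 reads.

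Some other mitochondrially encoded genes stood higher in the code 3482 lungs. mt-Nd5, a complex I subunit, was at 1564 CPM in control 1, 1354 in control 4 and 1990 in TO 4, against 1003 in control 2, 963 in TO 2, 836 in control 3 and 1035 in TO 3 (log2 fold change 0.80, SE 0.13, adjusted p = 0.478). TO 1 was above all of them at 2438 CPM. Of the 13 mitochondrial genes tested, 6 were without overlap higher and 1 (mt-Nd3) lower, and 6 passed the test against code 3604, among them mt-Nd6 with 0.84 (SE 0.18, adjusted p = 0.0279) and mt-Nd1 with 0.80 (SE 0.16, adjusted p = 0.0215). Mitochondrial genes took 1.58 to 1.90% of the reads in the 3 tested lungs and 2.33% in TO 1, against 1.11 to 1.45% in the other codes. That share can move with RNA quality, and its part in this difference was not tested. Without TO 4 none of the list was called, and without control 3 and control 1 the count was 3 and 4.

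Surfactant and other AT2 genes stood at lower levels in the code 3482 lungs than in either other code. The median log2 difference of the 17 AT2 genes was -0.65, beside -0.00201 over all genes tested, and 10 of 17 lay below all 4 other lungs. The median was -0.78 against code 3573, where no gene of any kind passed the test, and -0.47 against code 3604, where 5 passed as lower and 1 as higher. The 5 calls became 1 without control 3, 2 without TO 4, 8 without TO 2 and 9 without control 2. Beside the counts of list members throughout stand the shares of all genes: 4.97% higher and 5.32% lower without overlap. Against code 3604, 4.1% of all genes passed as higher and 3.9% as lower. In bulk tissue fewer AT2 cells and less RNA per cell cannot be told apart, here and for the cell types that follow.

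Sftpd, a surfactant protein of innate defence, was at 46.0, 65.8 and 36.5 CPM in control 1, control 4 and TO 4. It was at 79.9 and 177 CPM in control 2 and TO 2 and at 293 and 330 CPM in control 3 and TO 3. The 3 codes therefore formed 3 separate levels, with log2 differences of -2.14 (SE 0.47, adjusted p = 0.478) against both codes and -2.61 (SE 0.32, adjusted p = 0.0028) against code 3604. Slc34a2, the phosphate carrier of AT2 cells, was at 1006, 1177 and 971 CPM in the same 3 lungs against 1373, 2437, 1790 and 2310 CPM in control 2, TO 2, control 3 and TO 3, and it was lower than in code 3604 by 0.89 on the log2 scale (log2 fold change -0.89, SE 0.19, adjusted p = 0.0307). Lyz2, a lysozyme of AT2 cells and macrophages, was lower than in code 3604 as well (-0.78, SE 0.17, adjusted p = 0.0337). Sftpb, needed for surfactant film formation, did not overlap either, at 950, 1061 and 902 CPM against 1727, 2285, 1131 and 1694 CPM, and its difference did not pass against code 3604 (-0.47, adjusted p = 0.152). Sftpc overlapped, because control 1 at 7969 CPM was above control 3 at 7682 CPM. Chil1, a chitinase-like secreted protein, separated code 3604 rather than code 3482, with 10.8, 16.2 and 14.7 CPM in the code 3482 lungs, 14.4 CPM in control 2, 103 CPM in TO 2 and 165 and 147 CPM in control 3 and TO 3.

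Of the 16 AT1 genes, 8 lay below all other lungs, with a median log2 difference of -0.44. Ager, the receptor that marks AT1 membranes, was at 606 CPM in control 1, 562 in control 4 and 375 in TO 4 against 916, 943, 979 and 651 CPM in control 2, TO 2, control 3 and TO 3. TO 4 was the lowest of the 7, and TO 1 was lower still at 307 CPM. Against code 3604, 8 AT1 genes passed as lower, among them Ager (-0.73, SE 0.16, adjusted p = 0.0296), the water channel Aqp5 (-1.36, SE 0.32, adjusted p = 0.0418), Rtkn2 (-1.37, SE 0.34, adjusted p = 0.0503) and the angiogenic factor Vegfa (-1.07, SE 0.16, adjusted p = 0.00712). One list member, the growth factor binding protein Igfbp2, passed in the other direction, with 71.4, 77.4 and 55.7 CPM against 62.3, 26.3, 26.1 and 23.1 CPM. Without control 3, 1 AT1 gene was called as lower, without control 1 there were 6 and without TO 4 none, while the median against code 3604 was between -0.42 and -0.54 whichever library was left out.

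Airway secretory genes followed. Scgb1a1, the secretoglobin that defines club cells, was at 52.0, 46.8 and 32.8 CPM in control 1, control 4 and TO 4 against 94.1, 344, 87.2 and 108 CPM in control 2, TO 2, control 3 and TO 3. No lung overlapped, and TO 2 stood far above the rest. Cbr2, a carbonyl reductase of club cells, was at 343, 413 and 315 CPM against 497, 728, 897 and 1218 CPM and passed against code 3604 (-1.51, SE 0.19, adjusted p = 0.00291). Among 15 club and goblet genes 4 were without overlap lower and 4 passed as lower against code 3604, which became 2 without control 3 or TO 4. Ciliated cell genes differed less, with a median of -0.27, 3 of 20 without overlap lower and 1 called against code 3604, where 3.9% of all genes were called lower.

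**Figure D4:**
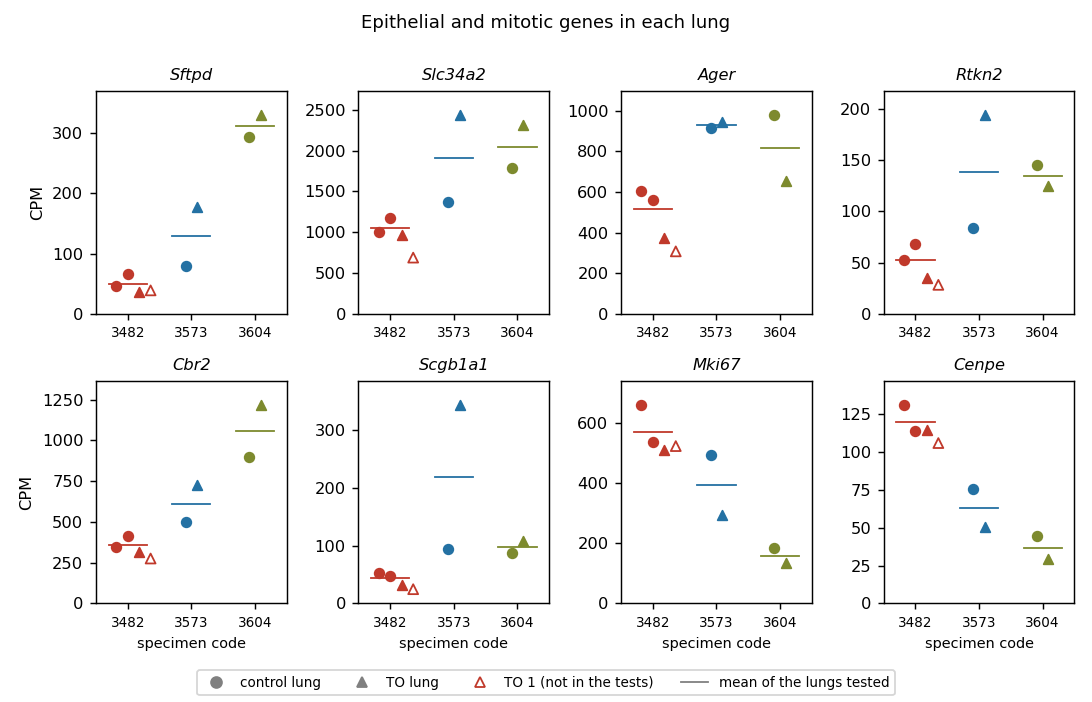
CPM of 6 epithelial genes (Sftpd, Slc34a2, Ager, Rtkn2, Cbr2, Scgb1a1) and 2 mitotic genes (Mki67, Cenpe) in each lung by code. Circles are control lungs, triangles TO lungs, the open triangle is TO 1 and lines are means of the tested lungs. The code 3482 lungs are the lowest for the epithelial genes and the highest for the mitotic ones, and TO 1 stands with them.

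Mitotic genes, summed, were higher in every code 3482 lung than in the other codes. All 34 genes of the list that were tested had a positive difference, with a median of 0.97, and 19 of 34 lay above all 4 other lungs. The summed level of the list was 3122 to 3748 CPM in the 3 tested lungs of code 3482 (3594 in TO 1), 2862 and 1795 CPM in control 2 and TO 2, and 1030 and 876 CPM in control 3 and TO 3. Against code 3604 all 34 passed the test as higher with a median of 1.78, and 31 to 34 passed with any 1 library left out. The median against code 3573 was 0.47. Code 3604 was itself below code 3573, with a median of -1.30.

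Mki67, the proliferation marker that coats mitotic chromosomes, was at 660, 535 and 511 CPM in control 1, control 4 and TO 4, at 495 and 293 CPM in control 2 and TO 2 and at 184 and 134 CPM in control 3 and TO 3. Control 2 came close to the code 3482 lungs and code 3604 lay far below (log2 fold change 1.78, SE 0.16, adjusted p = 0.00128). Cenpe, a kinesin of the kinetochore, was at 131, 114 and 115 CPM against 75.9, 50.9, 44.3 and 29.2 CPM (1.23 against both codes, SE 0.24, adjusted p = 0.478). Top2a, the topoisomerase that untangles sister chromatids, and Bub1b, a spindle checkpoint kinase, differed from code 3604 by 1.91 (SE 0.17) and 1.76 (SE 0.15), each with an adjusted p of 0.00128.

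The promoters of Bub1b and Top2a are shown as members of a list that moved together (RefSeq, GRCm38.p6, 250 bases before to 50 after the start). Capitals mark TTTGAA, the core of the cell cycle homology region, and CCAAT, on either strand. The motifs do not overlap each other in them.
Bub1b, chr2:118597961-118598260, plus strand: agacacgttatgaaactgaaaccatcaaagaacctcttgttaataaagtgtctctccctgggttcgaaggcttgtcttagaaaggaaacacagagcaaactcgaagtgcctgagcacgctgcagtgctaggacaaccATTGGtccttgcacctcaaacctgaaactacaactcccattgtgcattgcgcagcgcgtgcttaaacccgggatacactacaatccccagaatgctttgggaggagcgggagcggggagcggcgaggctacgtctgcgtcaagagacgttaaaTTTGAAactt
Top2a, chr11:99024140-99024439, minus strand: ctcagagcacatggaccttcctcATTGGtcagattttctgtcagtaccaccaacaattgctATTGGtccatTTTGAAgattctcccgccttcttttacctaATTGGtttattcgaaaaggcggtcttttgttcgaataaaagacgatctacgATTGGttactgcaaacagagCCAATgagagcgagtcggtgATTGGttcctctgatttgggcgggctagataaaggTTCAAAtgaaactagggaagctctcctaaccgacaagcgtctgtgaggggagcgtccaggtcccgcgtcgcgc

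TTTGAA was found in 21 of the 28 mitotic genes with a promoter in the table (75%) and in 12.9% of the 13289 tested genes with one, and CCAAT in 82.1% and 37.5%. Both stood together in 71.4% of the mitotic genes and in 5.15% of all. The list is one of mitosis genes and FOXM1 targets, and these shares describe the list and do not bear on the code. In the DNA replication list TTTGAA was in 3 of 24 promoters (12.5%).

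DNA replication genes did not follow the same order. Their summed level was 1292 to 1753 CPM in the code 3482 lungs and 1656 and 1228 CPM in control 2 and TO 2, which overlap, against 458 and 683 CPM in control 3 and TO 3. The median difference was 0.09 against code 3573 and 1.44 against code 3604, where 27 of 29 passed as higher. Mcm5, part of the replicative helicase, was at 83.8, 53.5 and 71.7 CPM against 74.4 and 53.9 CPM in code 3573 and 8.64 and 23.6 CPM in code 3604 (2.22 against code 3604, SE 0.38, adjusted p = 0.0116). Pcna, the sliding clamp, and Mcm6 differed from code 3604 by 1.20 (SE 0.23, adjusted p = 0.0187) and 1.24 (SE 0.24, adjusted p = 0.019), and from code 3573 by -0.13 and -0.07. Rrm1, a ribonucleotide reductase subunit, was 1 of 2 members without overlap (184, 136 and 156 CPM against 129, 126, 65.7 and 77.3 CPM). A count of 2 among 29 is near the 4.97% of all genes that were higher without overlap. Without control 3 the 27 calls fell to 11, without TO 4 to 7 and without control 1 to 19.

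**Figure D5:**
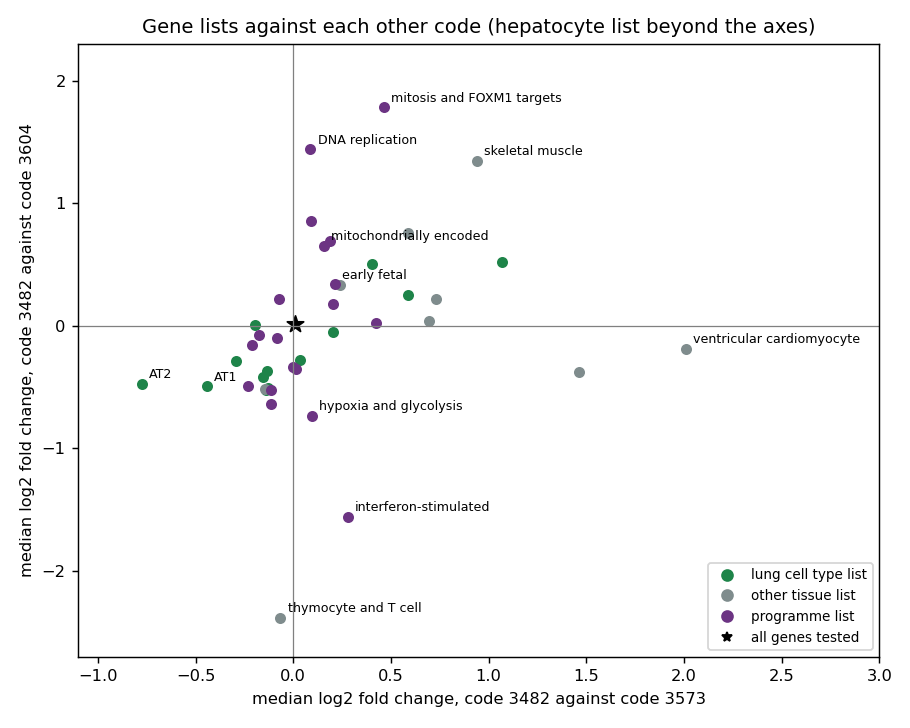
Median log2 fold change of each gene list in code 3482 against code 3573 (x axis) and against code 3604 (y axis). Each point is 1 list, coloured by kind, and the star is the median of all genes tested. Both axes share the 3 lungs of code 3482. AT2 and AT1 lists lie below 0 on both axes, the mitosis list above 0 on both, and the DNA replication and interferon lists at 0.09 and 0.28 on the x axis but 1.44 and -1.56 on the y axis. The hepatocyte list lies beyond the axes.

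Interferon-stimulated genes were lower in code 3482 than in code 3604. Of the 36 tested, 26 passed as lower than in code 3604 with a median of -1.56, whereas the median against code 3573 was 0.28. Their summed level was 401, 423 and 607 CPM in control 1, control 4 and TO 4 and 484 and 398 CPM in control 2 and TO 2, against 894 CPM in control 3 and 1576 CPM in TO 3. Ifit3, an antiviral RNA-binding protein, was at 0.494, 0.248 and 4.95 CPM in the code 3482 lungs, 0.865 and 2.25 CPM in code 3573 and 14.7 and 40.1 CPM in code 3604 (-4.07 against code 3604, SE 0.49, adjusted p = 0.0028). Rsad2, which makes an antiviral nucleotide, was at 3.23, 5.33 and 12.7 CPM against 28.3 and 42.1 CPM in code 3604 (-2.30, SE 0.30, adjusted p = 0.00355). Within code 3482 TO 4 was the highest for both. Between 12 and 30 of the 36 genes passed with any 1 library left out, with 12 without TO 4 and 16 without control 1.

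The promoters of Ifit3 and Rsad2 are shown with the core of the interferon-stimulated response element in capitals on either strand, searched as GAAA, any 2 bases and GAAA.
Ifit3, chr19:34583279-34583578, plus strand: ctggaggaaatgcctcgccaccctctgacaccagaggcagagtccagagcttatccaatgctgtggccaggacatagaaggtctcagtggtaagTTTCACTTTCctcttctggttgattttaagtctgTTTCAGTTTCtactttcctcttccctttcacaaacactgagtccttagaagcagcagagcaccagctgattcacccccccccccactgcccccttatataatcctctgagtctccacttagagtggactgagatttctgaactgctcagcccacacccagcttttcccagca
Rsad2, chr12:26456403-26456702, minus strand: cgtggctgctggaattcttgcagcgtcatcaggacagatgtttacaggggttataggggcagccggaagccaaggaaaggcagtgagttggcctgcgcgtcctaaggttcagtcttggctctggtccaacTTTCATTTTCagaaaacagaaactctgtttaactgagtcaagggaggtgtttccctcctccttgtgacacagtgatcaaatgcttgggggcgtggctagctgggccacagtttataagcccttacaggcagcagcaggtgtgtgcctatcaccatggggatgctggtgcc

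This motif was found in 16 of the 24 interferon-stimulated genes with a promoter in the table (66.7%) and in 3.12% of all tested genes with one. These shares too describe the list and do not bear on the code.

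Hypoxia, clock, glucocorticoid response and immediate early genes stood lower in code 3482 mainly against code 3604. Heat shock and unfolded protein genes differed less from code 3604, with a median of -0.07 and 2 of 19 called as lower. Against that code 11 of 23 hypoxia and glycolysis genes, 10 of 20 clock genes, 8 of 16 glucocorticoid response genes and 7 of 20 immediate early genes passed as lower. Without control 3 these counts fell to 2, 2, 0 and 1, and without TO 4 to 2, 1, 1 and 4. Without control 1 they were 5, 5, 5 and 7. Bnip3, a hypoxia-induced mitophagy receptor, was at its highest in control 3, with 31.7, 39.4 and 37.7 CPM in code 3482, 27.4 and 45.1 CPM in code 3573, 168 CPM in control 3 and 69.2 CPM in TO 3. Of the immediate early genes, 6 of 20 lay below all lungs of both other codes. Zfp36, which destabilises cytokine mRNAs, was at 45.6, 46.3 and 39.9 CPM against 56.4, 67.2, 101 and 86.8 CPM (-1.11 against code 3604, SE 0.15, adjusted p = 0.00372), and Ier3 was at 19.7, 21.7 and 16.7 CPM against 25.5, 34.6, 75.6 and 42.6 CPM. Hsd11b1, which regenerates active glucocorticoid, was at 112, 147 and 112 CPM against 177, 201, 240 and 188 CPM, and it passed against code 3604 (-0.81, SE 0.16, adjusted p = 0.0213).

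The early fetal list summed to 6681 to 7326 CPM in the 3 tested lungs of code 3482 and to 5293 to 5844 CPM in the other codes, while 16 of its 19 tested genes had a positive difference and 3 a negative one. Igf2, the imprinted fetal growth factor, was at 51.9, 63.3 and 94.9 CPM in control 1, control 4 and TO 4 and between 33.9 and 38.4 CPM in the 4 others (0.96, SE 0.16, adjusted p = 0.478). It was among the genes that passed against code 3604 (0.92, SE 0.19, adjusted p = 0.0232). Its imprinted neighbour H19, a non-coding RNA, was at 2663, 2827 and 3156 CPM against 2200, 1480, 1990 and 1786 CPM, and Mest and Peg10, also imprinted, did not overlap either, with differences of 0.53 and 0.69 against both codes. TO 1 was at 70.7 CPM for Igf2, 3424 for H19, 774 for Mest and 106 for Peg10, above the 4 lungs of the other codes for each. Of 19 early fetal genes 6 were without overlap higher, and 7 passed against code 3604, a count that was 0 without TO 4, 2 without control 1 and 3 without control 3.

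Cells of the mesenchyme and mesothelium differed gene by gene. Msln, the mesothelin of the pleural surface, was at 177, 239 and 133 CPM against 306, 346, 446 and 347 CPM (-1.06, SE 0.19, adjusted p = 0.478) and passed against code 3604 (-1.18, SE 0.19, adjusted p = 0.00938). Lipofibroblast genes had a median of -0.44, with 5 of 12 without overlap lower, among them Tcf21, a mesenchymal transcription factor, at 225, 233 and 220 CPM against 298, 348, 308 and 325 CPM. Fgf10, the growth factor that drives branching, was at 60.5, 59.4 and 55.5 CPM against 65.9, 76.0, 84.1 and 87.9 CPM. Eln, elastin, separated code 3604 from the others, with 3758, 4577 and 3721 CPM in code 3482, 4338 and 5916 CPM in code 3573 and 10503 and 9408 CPM in code 3604. The smooth muscle list overlapped when summed, with 2 of 12 genes without overlap higher, and its median against code 3604 was 0.26, or -0.09 without TO 3. Synpo2, an actin-bundling protein, was at 49.8, 42.1 and 58.0 CPM against 24.1, 29.8, 28.7 and 25.3 CPM (0.91, SE 0.15, adjusted p = 0.478), and both it and the smooth muscle myosin Myh11 passed against code 3604 (0.90 and 0.84, with SE 0.17 and 0.16 and adjusted p = 0.0201 and 0.0176).

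Signals that pattern the lung bud differed from code 3604. Wnt2, a mesenchymal Wnt ligand, was at 56.2, 60.2 and 55.6 CPM in code 3482 and 63.4 and 51.6 CPM in code 3573, against 15.4 and 20.2 CPM in code 3604 (1.69, SE 0.18, adjusted p = 0.00161). The epithelial ligand Wnt7b and the Hedgehog effector Gli1 differed from code 3604 in the same direction (1.34, SE 0.19, adjusted p = 0.00495, and 1.09, SE 0.22, adjusted p = 0.0212). Of 25 genes of the Wnt, Hedgehog and Fgf list 7 passed as higher and 1 as lower, and 10 of 20 cholesterol synthesis genes passed as higher, such as Mvk, mevalonate kinase (1.61, SE 0.24, adjusted p = 0.00686). Without control 3 the counts of higher genes were 3 and 1, without TO 4 they were 2 and 5, without control 1 they were 4 and 5, and without control 4 they were 5 and 6. Against code 3573 the medians of both lists were -0.07 and 0.19.

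Hba-a1, Hbb-bs and Hbb-bt were lower in every tested code 3482 lung than in the other codes, while most erythroid genes overlapped. Hba-a1, an alpha globin, was at 1087, 1156 and 951 CPM against 1680, 1506, 2006 and 1461 CPM (-0.69, SE 0.11, adjusted p = 0.478), and it passed against code 3604 (-0.74, SE 0.11, adjusted p = 0.00768). The beta globins Hbb-bs and Hbb-bt were lower in every lung of the code, with log2 fold changes of -0.47 and -0.44 (adjusted p = 0.498 and 0.489), while Tfrc, the transferrin receptor, was higher, at 141, 129 and 131 CPM against 107, 65.9, 89.7 and 73.0 CPM. Of 17 tested erythroid genes, 3 were without overlap lower and 1 higher, and the others overlapped. Over all genes the shares were 5.32% lower and 4.97% higher, so 1 of 17 is near the share of all genes.

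Among the other genes with the smallest unadjusted p were 3 that were lower throughout the code. Rap1gap, an inactivator of the small GTPase Rap1, was at 45.8, 54.0 and 41.6 CPM against 76.9, 85.1, 82.3 and 70.6 CPM. Anxa3, a membrane-binding annexin, was at 172, 186 and 137 CPM against 239, 278, 337 and 282 CPM. The uncharacterised 1810010H24Rik was at 63.0, 68.2 and 54.6 CPM against 93.3, 96.2, 141 and 100 CPM. All 3 passed against code 3604, with adjusted p-values of 0.0246, 0.00892 and 0.00578, and none passed against both codes together.

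Other high-ranking genes stood high in 2 of the 3 tested lungs of the code. Krt4 and Krt13, keratins of stratified mucosa, were at 153 and 107 CPM in control 1 and 137 and 109 CPM in TO 4, and at 5.04 and 1.28 CPM in control 4. The 4 lungs of the other codes held at most 3.32 CPM of Krt4 and 1.04 CPM of Krt13, so the tested groups did not overlap. Control 4 was much nearer the other codes than control 1 and TO 4. TO 1 was at 3.53 CPM of Krt4 (1 read) and 24.7 CPM of Krt13 (7 reads). Yet its sum of the basal and stratified epithelium list, which holds both, was 813 CPM (230 reads), against 136 to 529 CPM in the tested lungs. Krt5, another keratin of that list, was at 198 CPM in TO 1 (56 reads). Among the tested lungs liver genes had the same pattern. Alb, albumin, was at 517 CPM in control 1, 246 CPM in TO 4 and 11.4 CPM in control 4 against 1.70 to 13.4 CPM in the others. The median difference of 18 hepatocyte genes was 4.67, and 9 of them passed against code 3604, which became 1 without control 1, control 3 or TO 3 and 0 without TO 4, and was 14 without control 4. Their part in the other differences by code was not tested.

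In TO 1 the depth allowed a coarse check only. At an unadjusted p under 0.05, 493 genes (2.26%) were higher and 684 (3.14%) lower in code 3482 without overlap. Of these, 548 had at least 10 expected reads in TO 1, and 466 of them (85.0%) were nearer the mean of code 3482. The same was true of 66.2% of all 6383 tested genes at that depth. For 359 genes lower in the code the count was 336, and for 189 genes higher in it the count was 130. The share among the higher genes was thus close to the 66.2% of all tested genes. The excess over all genes came mainly from the lower ones. TO 1 was also below all tested lungs for Nkx2-1 (332 CPM against at least 501 CPM) and Pecam1 (307 CPM against at least 399 CPM). It was above them for the collagen gene Col1a1 (3943 CPM). Its place among the lower genes therefore does not check the code.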

How the data were processed

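The authors aligned the reads with STAR (versions are not given in the labels) to mouse build mm10, and per the labels named DESeq2. Each deposited file held raw read counts per gene for 1 lung in an unstranded and 2 stranded columns, and the unstranded counts were used, since each stranded column held about the same share of the reads. Of 55385 gene IDs, 55144 matched GENCODE M21, 4147 genes on X or Y were left out, and genes with at least 5 reads in 3 of 7 libraries were tested. The IDs with no place in that annotation (241) entered no test.

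Counts were fitted with edgeR 4.0.16 (quasi-likelihood test, TMM, terms for condition and code) in R 4.3.3, and a gene was called at a Benjamini-Hochberg adjusted p under 0.1. A second fit held the 3 codes as separate levels. CPM (counts per M reads on genes) used TMM-scaled library sizes, and log2 CPM used a prior count of 2. The scripts were tested on simulated data. DESeq2 1.42.0, limma 3.58.1 (voom), another scaling, other filters, TO 1 included and each library left out were alternatives. The term for Y-linked reads was added after seeing the data.

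The named genes were, in each direction, the 5 with the smallest unadjusted p among non-overlapping protein-coding genes of at least 1 CPM, and per list the 2 most abundant members and up to 4 called ones. Gm28438, mt-Nd3, their neighbouring copies and some further list members were chosen after their values were seen. The code was read from the specimen names, and the comparison, members and lists were chosen with earlier results of these data known.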

Additional observations from a re-analysis of the deposited data

Results flagged for a closer look

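Among the 4 lungs of the other codes, 1 lung stood far from the remaining 3 in 6 of 113 levels tested. These were the levels of 71 genes and the sums of 42 lists, and all 6 were levels of single genes. Chance alone gives about 1 in 20, and 6 of 113 is near that. TO 3 was at 38.9 CPM of Peg10 (the others 26.4 to 28.4) and TO 2 at 260 CPM of Hbb-bt (217 to 218). Control 3 was at 141 CPM of 1810010H24Rik (93.3 to 100) and at 439 CPM of Muc1 (310 to 323). Control 2 was at 62.3 CPM of Igfbp2 (23.1 to 26.3), which lies among the code 3482 lungs, and TO 2 was at 344 CPM of Scgb1a1 (87.2 to 108). For the first 4 and for Scgb1a1, the 3 tested lungs of code 3482 lay outside the range of the others with that lung included. Some of the 71 genes were named because the groups do not overlap or after their values were seen. That separation is therefore partly set by the choice of genes.

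TO 1, the shallow lung of code 3482, held more than any tested lung of 5 of 10 lists of other tissues. Its summed level was 6039 CPM of atrial cardiomyocyte genes (465 to 4995 in the 7 tested lungs), 4993 CPM of ventricular cardiomyocyte genes (210 to 3828), 2936 CPM of skeletal muscle genes (31.1 to 243), 933 CPM of thymocyte and T cell genes (77.6 to 104) and 304 CPM of cartilage genes (114 to 218).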

How the results depend on the processing

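Counts of called genes moved most. Against both other codes (1 gene) the count was 341 with DESeq2, 1027 without a filter on low counts, and 0 with 5 reads in every library, in control lungs alone, with the second read column or with a term for Y-linked reads. It ran from 0 to 875 with a library left out. Against code 3573 (0) it was 226 with DESeq2, 707 without a filter, 1 with limma-voom or TO 1 included, and 0 to 29 with a library left out. Against code 3604 (1744) it was 2810 with DESeq2, 2822 without a filter and 228 to 3032 with a library left out. Between codes 3604 and 3573 (831) it was 1933, 2258 and 72 to 2735. The interaction (0) gave 42 without a filter and could not be estimated without TO 4. The distance between codes minus that within codes was -20.2 with TO 1 included and 8.91 to 20.0 with a library left out. With replicate number as a block in limma-voom, 0 genes were called (consensus correlation 0.151). Deviations of same-numbered lungs from the mean of their condition had correlations of 0.109, 0.214 and 0.0953. Control 1 and TO 4, of the same code but unlike number, were at 0.163. Pairs of a control and a TO lung of unlike code ran from -0.194 to 0.0315. Each same-numbered pair also shares its code, so number and code cannot be told apart there, and the numbers were not taken as pairs. The causes were not tested.

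Of 798 alternative list medians 762 moved by less than the spread used, and 31, in 14 lists, changed sign. No named gene reversed in 1349 alternative values against both codes. TO 1, at 270078 read pairs, limits its check to abundant genes.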

Other observations

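Heart muscle genes varied widely between the lungs of code 3482. Myh7, the slow heart and muscle myosin, was at 74.5 CPM in control 1, 603 in control 4, 1490 in TO 4 and 1742 in TO 1, against 102 in control 2, 133 in TO 2, 781 in control 3 and 168 in TO 3. The groups overlapped, and no gene of the atrial and ventricular lists passed against code 3604. The shares of all genes to set beside the next counts are 4.97% higher and 5.32% lower without overlap, and 4.1% called higher against code 3604. Neuroendocrine genes had a median log2 difference of 0.52, with 3 of 14 without overlap higher and 2 called against code 3604, and cartilage genes had a median of 0.64, with 5 of 12 without overlap higher and 3 called. Vascular endothelial genes had a median of -0.13 and 2 of 18 without overlap lower, a share near that of all genes. Nuclear genes of oxidative phosphorylation had a median of 0.17 with none of 22 without overlap, beside 0.40 for the mitochondrially encoded genes.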
